A study of Mus musculus with 11 samples.

Results

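Glycolysis turns glucose into pyruvate, and lactate dehydrogenase interconverts pyruvate and lactate. The 10 genes described here encode 5 steps of that route: the hexokinases Hk1 and Hk2, the phosphofructokinases Pfkm, Pfkl and Pfkp, the aldolases Aldoa and Aldoc, the phosphoglycerate kinase Pgk1, and the lactate dehydrogenase subunits Ldha and Ldhb. They were taken by symbol, and each was read from the probe set with the highest mean among those annotated to that symbol alone. All 10 were measured and passed the filter on low values, out of 16527 genes tested. On GRCm38.p6 the genes are Hk1 (chr10:62268855-62379920), Hk2 (chr6:82725025-82774454), Pfkm (chr15:98092589-98132447), Pfkl (chr10:77986947-78009807), Pfkp (chr13:6579874-6649060), Aldoa (chr7:126795234-126800994), Aldoc (chr11:78323073-78327781), Pgk1 (chrX:106187100-106203699), Ldha (chr7:46842274-46855627) and Ldhb (chr6:142490249-142507957).

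Expression was measured on 11 Affymetrix mouse gene arrays with RNA amplified from green fluorescent cells. The cells had been sorted by flow cytometry out of dissected dentate gyrus, a part of the hippocampus that keeps forming granule neurons, taken from mice at postnatal day 35. PomcGFP mice (2 arrays) carry a GFP transgene for Pomc, a reporter that labels newborn granule neurons. kiTbr2GFP mice (3 arrays) have GFP knocked into Eomes, which encodes Tbr2 and marks intermediate progenitors of neurons. tgTbr2GFP mice (3 arrays) carry GFP on a BAC transgene of the same gene. NesGFP mice (3 arrays) carry a Nestin GFP transgene; Nestin is a filament protein found in neural stem cells and also in vessel cells. Each sort thus follows the activity of a reporter, not a single cell type, and gave 3000 to 5000 cells per group per the labels. Whether arrays within a line represent different animals is not labelled, so p-values here reflect array-to-array spread that may be technical. The mean level of 3 Y-linked genes was uneven within tgTbr2GFP, at 9.0397, 5.0515 and 7.4942. It was 8.7011 to 8.9637 in kiTbr2GFP, 6.6811 to 7.6913 in NesGFP, and 8.153 and 7.9951 in PomcGFP. The Y-linked level thus differed between lines too, and the part of sex in the line differences was not tested separately from line. The number of arrays limits the precision.

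In brain tissue, astrocytes and stem cells with astrocyte features are known for high glycolysis and release of lactate, while mature neurons rely more on oxidation. Several steps exist as isoforms from separate genes. Aldoc is a known astrocyte enzyme and Aldoa the widely expressed form, and Ldhb subunits are the ones known to favour lactate oxidation while Ldha subunits favour lactate formation.

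Values are log2 expression values from RMA, the array summary the authors deposited, so a difference of 1 is a factor of 2 in signal. Levels are compared between lines for the same gene and never between genes. Array medians lay between 7.0 and 7.15. Across genes, Pearson's r was 0.766 to 0.839 between a NesGFP array and any array outside that line, and 0.933 to 0.985 between arrays outside it. Nes itself averaged 6.02 in PomcGFP, 6.15 in kiTbr2GFP, 5.94 in tgTbr2GFP and 7.35 in NesGFP. Eomes was at 7.35 to 7.68 in PomcGFP, 9.93 to 10.07 in kiTbr2GFP, 9.83 to 10.39 in tgTbr2GFP and 8.52 to 9.23 in NesGFP. Gfap, the filament of astrocytes and radial stem cells, was at 6.98 to 7.89 in the other 3 lines and 9.82 to 9.93 in NesGFP. NesGFP also held the highest levels of vessel and oligodendrocyte markers.

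The stretches before the start sites of 4 members are shown because 7 of the 10 genes hold the letters ACGTG on either strand in a promoter window, against 21.8% of all 27025 genes with a window. Of the 4, Pgk1, Ldha and Aldoa differed between the lines and Hk2 did not pass. ACGTG is a form of the core of the hypoxia response element, and other forms were not searched for. Pgk1, Ldha, Aldoa and Hk2 are known hypoxia-induced genes. The sequences are from RefSeq on GRCm38.p6, run from 250 bases before the start to the base before it, and carry the motif in capitals. Where the palindrome CACGTG occurs, the matches on both strands overlap.
Pgk1 (chrX:106186850-106187099, plus strand): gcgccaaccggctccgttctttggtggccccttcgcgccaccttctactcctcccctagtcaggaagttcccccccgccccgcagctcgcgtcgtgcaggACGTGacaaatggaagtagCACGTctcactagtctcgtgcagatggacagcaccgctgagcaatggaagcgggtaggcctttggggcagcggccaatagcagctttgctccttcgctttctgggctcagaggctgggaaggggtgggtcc
Ldha (chr7:46845554-46845803, plus strand): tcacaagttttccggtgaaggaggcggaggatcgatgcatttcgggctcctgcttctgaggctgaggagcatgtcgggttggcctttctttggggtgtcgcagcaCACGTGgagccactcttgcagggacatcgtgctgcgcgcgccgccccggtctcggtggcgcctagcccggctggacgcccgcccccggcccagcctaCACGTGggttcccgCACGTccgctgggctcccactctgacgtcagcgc
Aldoa (chr7:126799179-126799428, minus strand): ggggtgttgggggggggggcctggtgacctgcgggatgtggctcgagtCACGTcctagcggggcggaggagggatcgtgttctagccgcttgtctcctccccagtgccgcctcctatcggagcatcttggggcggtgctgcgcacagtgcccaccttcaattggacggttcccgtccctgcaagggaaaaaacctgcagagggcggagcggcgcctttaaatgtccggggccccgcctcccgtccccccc
Hk2 (chr6:82774455-82774704, minus strand): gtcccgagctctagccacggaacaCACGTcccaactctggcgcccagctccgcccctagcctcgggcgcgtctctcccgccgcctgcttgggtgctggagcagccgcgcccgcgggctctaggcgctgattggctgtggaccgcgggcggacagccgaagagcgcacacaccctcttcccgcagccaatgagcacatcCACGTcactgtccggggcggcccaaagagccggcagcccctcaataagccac
There were 18 promoter windows for the 10 members, some of them overlapping, and 9 held the motif. Each window was 300 bases long, 50 of them from the start on. Pfkm has 4 windows and Aldoa 3, and a gene with more windows has more chances to hold the motif. In Hk1 and Aldoc the matches lay only after the start. Among all 32851 windows the share was 19.6%. No window of Pfkl, Pfkp or Ldhb held it. All of these genes differed between the lines in limma's moderated F test (adjusted p = 0.000582, 9.42e-05 and 4.62e-05). Hk1 held it in 1 of 2 windows. With the chosen probe set Hk1 did not pass that test (adjusted p = 0.25), and with its other probe set it did (adjusted p = 0.000685). Whether the motif goes with the differences was not tested. The matches describe letters in a window and were not tested as binding sites.

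Across the 4 lines, 8 of the 10 members differed in limma's moderated F test (adjusted p = 7.54e-07 to 0.00148), against 43.4% of all genes. The exceptions were Hk1 as chosen (adjusted p = 0.25) and Hk2 (adjusted p = 0.443). With its other probe set Hk1 passed the same test (adjusted p = 0.000685). Of the 10 members, 8 passed as lower in both Tbr2 lines (the mean of kiTbr2GFP and tgTbr2GFP) than in NesGFP, where 29.1% of all genes passed as lower and 48.9% in either direction. The same 8 passed as lower in PomcGFP than in NesGFP, where 24% of all genes did and 39.9% passed in either direction. That count fell to 4 without the second PomcGFP array, where 16.4% of all genes passed as lower, and to 6 in a fit of PomcGFP and NesGFP alone, where 17.1% did. The PomcGFP count was 7 with cyclic loess (3655 of 16527 genes lower) and 7 without the first NesGFP array (3717 of 16527 lower). The comparisons of the Tbr2 lines and of PomcGFP with NesGFP share the NesGFP arrays. With the lowest-mean probe sets of Hk1, Ldhb and Pgk1, chosen after seeing the data, 9 of 10 members passed as lower in both comparisons. With a filter at the 50th percentile, 4621 of 12321 genes passed as lower in the Tbr2 lines, and 8 of 9 members tested. In the main fit the median difference of the members was -1.14 for the Tbr2 lines and -0.70 for PomcGFP. The medians over all genes were -0.02 and 0.00. In bulk RNA, fewer cells of a type and less RNA per cell cannot be told apart.

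**Figure D1:**
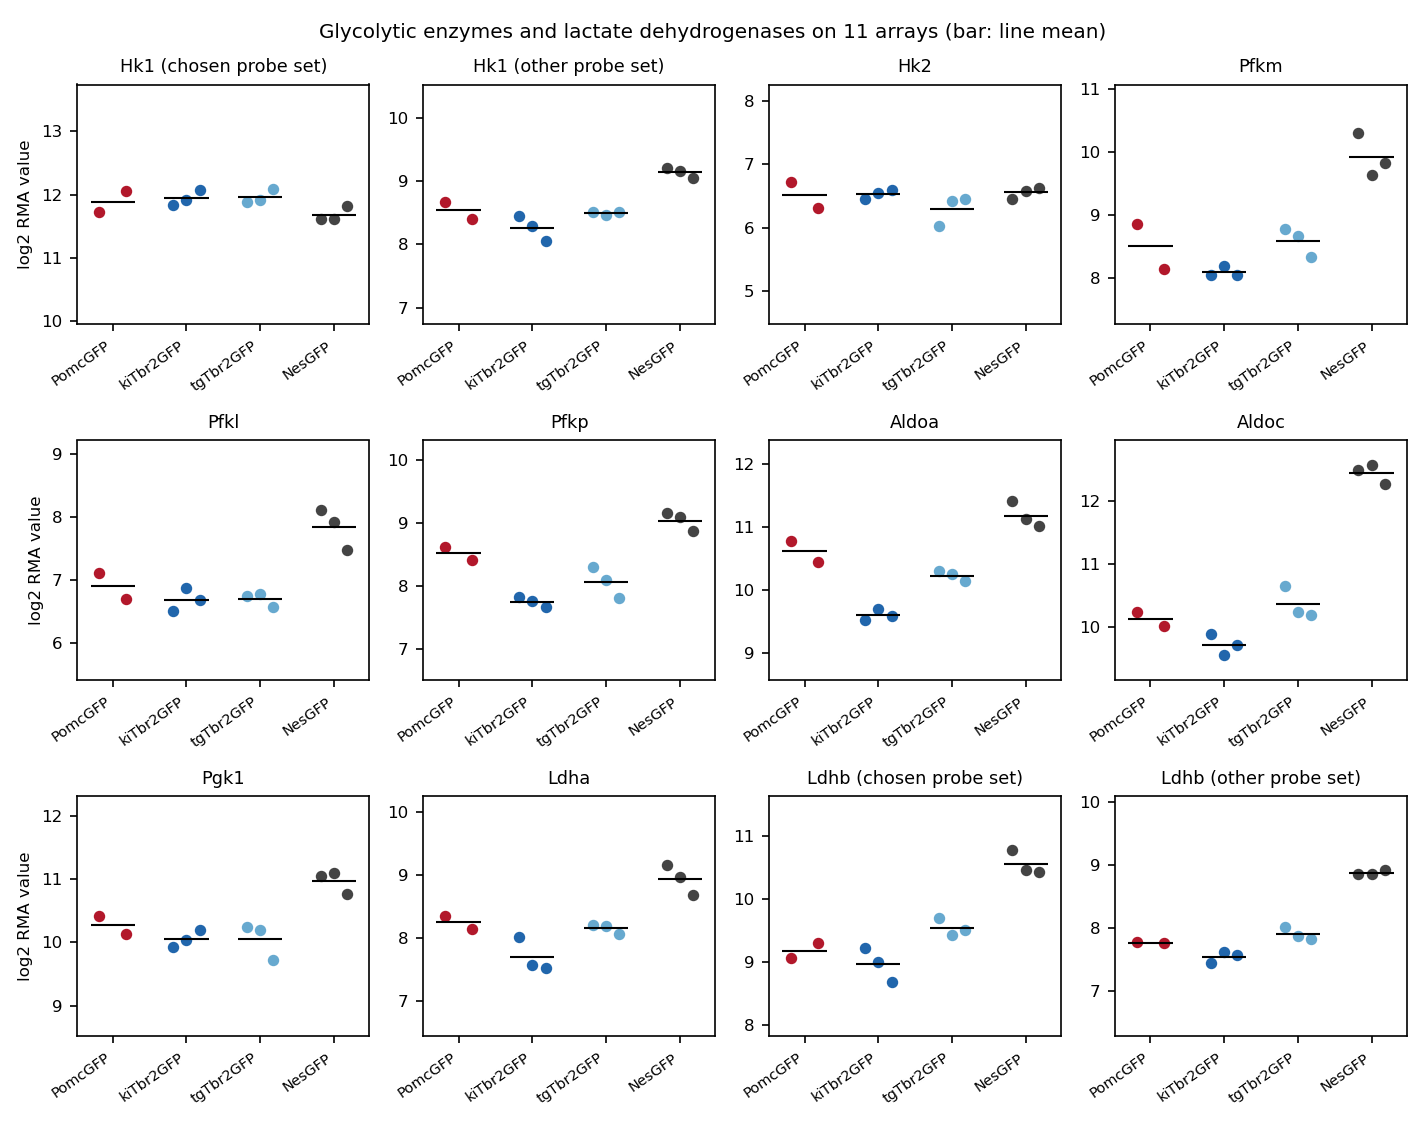
Log2 RMA values (y axis, each panel spanning the same number of log2 units) of the 10 members on 11 arrays, by line (x axis). Points are arrays and bars line means. Hk1 and Ldhb have a panel for each of 2 probe sets. Aldoc lies at 10.02 and 10.24 in PomcGFP and at 12.27 to 12.57 in NesGFP, and Hk2 lies between 6.02 and 6.72 throughout.

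Hexokinases phosphorylate glucose and so commit it to the cell. Hk2, the inducible form, was at 6.72 and 6.31 in PomcGFP, 6.46, 6.54 and 6.59 in kiTbr2GFP, 6.02, 6.43 and 6.46 in tgTbr2GFP, and 6.46, 6.58 and 6.63 in NesGFP. The lines overlapped, and Hk2 lay below the median of all probe sets on every array. Its differences were -0.14 ± 0.13 (SE) for the Tbr2 lines against NesGFP (adjusted p = 0.383) and -0.04 ± 0.16 (SE) for PomcGFP against NesGFP (adjusted p = 0.85), neither past the test in limma.

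Hk1, the main hexokinase of brain, has 2 probe sets annotated to it alone, and they went opposite ways. The probe set with the higher mean was at 11.72 and 12.05 in PomcGFP, 11.83 to 12.07 in kiTbr2GFP, 11.88 to 12.09 in tgTbr2GFP and 11.60 to 11.82 in NesGFP. It differed by 0.27 ± 0.11 (SE) between the Tbr2 lines and NesGFP and did not pass (adjusted p = 0.0583). The only accession listed for that probe set is a GenBank sequence that 16 probe sets with several symbols also list. All 16 are annotated to Hk1 together with Rpl17, a ribosomal protein gene, and they differed by 0.24 to 0.73 in the same comparison (median 0.28). Whether it reads Hk1 was not tested. The other Hk1 probe set lists that sequence too, but with RefSeq transcripts of Hk1. It was at 8.67 and 8.41 in PomcGFP, 8.45, 8.30 and 8.06 in kiTbr2GFP, 8.52, 8.47 and 8.52 in tgTbr2GFP, and 9.22, 9.17 and 9.05 in NesGFP. All 8 arrays of the other lines lay below the 3 NesGFP arrays. With this probe set Hk1 was lower by -0.76 ± 0.11 (SE) in the Tbr2 lines (adjusted p = 0.00011) and by -0.60 ± 0.14 (SE) in PomcGFP (adjusted p = 0.00446), both against NesGFP.

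Phosphofructokinase catalyses the committed step of glycolysis and is built from muscle-type, liver-type and platelet-type subunits. Pfkm, the muscle-type subunit, was at 8.86 and 8.14 in PomcGFP, 8.04, 8.18 and 8.04 in kiTbr2GFP, 8.77, 8.66 and 8.34 in tgTbr2GFP, and 10.30, 9.64 and 9.82 in NesGFP. NesGFP lay above every other array, and the PomcGFP arrays lay far apart. Pfkm differed by -1.58 ± 0.18 (SE) for the Tbr2 lines (adjusted p = 2.46e-05) and -1.42 ± 0.23 (SE) for PomcGFP (adjusted p = 0.000577), both against NesGFP. Pfkl, the liver-type subunit, was at 7.12 and 6.71 in PomcGFP, 6.52 to 6.88 in kiTbr2GFP, 6.58 to 6.79 in tgTbr2GFP and 7.48 to 8.12 in NesGFP. Only the 3 NesGFP arrays held Pfkl above the median of their probe sets, and the differences were -1.15 for the Tbr2 lines and -0.93 for PomcGFP. Pfkp, the platelet-type subunit, was at 8.63 and 8.42 in PomcGFP, 7.82, 7.77 and 7.67 in kiTbr2GFP, 8.31, 8.10 and 7.81 in tgTbr2GFP, and 9.16, 9.09 and 8.88 in NesGFP. PomcGFP lay between the Tbr2 lines and NesGFP without overlap with either. Pfkp differed by -1.13 ± 0.12 (SE) for the Tbr2 lines (adjusted p = 1.47e-05) and -0.52 ± 0.16 (SE) for PomcGFP (adjusted p = 0.0208). The PomcGFP call ended with cyclic loess (-0.37, adjusted p = 0.0733), in a fit of PomcGFP and NesGFP alone (adjusted p = 0.0522), without the first NesGFP array (adjusted p = 0.0557) and without the second PomcGFP array (adjusted p = 0.165).

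Aldolase splits fructose bisphosphate into triose phosphates. Aldoc was at 10.24 and 10.02 in PomcGFP, 9.88, 9.55 and 9.71 in kiTbr2GFP, 10.66, 10.24 and 10.20 in tgTbr2GFP, and 12.50, 12.57 and 12.27 in NesGFP. Every NesGFP array stood more than a log2 unit above every other array. Aldoc showed the largest difference of the 10, at -2.40 ± 0.13 (SE) for the Tbr2 lines against NesGFP (adjusted p = 1.16e-07), which put the signal at 0.189 times that of NesGFP. It ranked 178th from the lowest among the 16527 genes there. For PomcGFP against NesGFP it was -2.31 ± 0.17 (SE; adjusted p = 2.42e-06). Aldoa was at 10.79 and 10.45 in PomcGFP, 9.54, 9.70 and 9.59 in kiTbr2GFP, 10.31, 10.25 and 10.14 in tgTbr2GFP, and 11.42, 11.12 and 11.02 in NesGFP. The 4 lines did not overlap, kiTbr2GFP being lowest, then tgTbr2GFP, PomcGFP and NesGFP. Aldoa differed by -1.26 ± 0.12 (SE) for the Tbr2 lines (adjusted p = 4.06e-06) and -0.57 ± 0.15 (SE) for PomcGFP (adjusted p = 0.0102). The PomcGFP call ended in a fit of PomcGFP and NesGFP alone (adjusted p = 0.0681) and without the second PomcGFP array (-0.40, adjusted p = 0.132).

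Phosphoglycerate kinase makes the first ATP of the pathway. Pgk1 was at 10.41 and 10.14 in PomcGFP, 9.93, 10.04 and 10.19 in kiTbr2GFP, 10.24, 10.20 and 9.73 in tgTbr2GFP, and 11.05, 11.11 and 10.77 in NesGFP. The other 3 lines overlapped with each other and lay below NesGFP. It differed by -0.92 ± 0.14 (SE) for the Tbr2 lines (adjusted p = 0.000186) and -0.70 ± 0.18 (SE) for PomcGFP (adjusted p = 0.00865). Without the second PomcGFP array the PomcGFP difference was -0.56 (adjusted p = 0.0958). Of the 3 Pgk1 probe sets, the chosen one and a second have the same values on all 11 arrays, and the third gave -0.86 and -0.63 in these comparisons.

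Lactate dehydrogenase is a tetramer of Ldha and Ldhb subunits. Ldha was at 8.36 and 8.15 in PomcGFP, 8.03, 7.57 and 7.53 in kiTbr2GFP, 8.21, 8.20 and 8.07 in tgTbr2GFP, and 9.17, 8.98 and 8.70 in NesGFP. All NesGFP arrays were above the rest. Ldha differed by -1.01 ± 0.14 (SE) for the Tbr2 lines (adjusted p = 9.25e-05) and -0.69 ± 0.18 (SE) for PomcGFP (adjusted p = 0.0091), and without the second PomcGFP array by -0.59 (adjusted p = 0.0893). Ldhb was at 9.05 and 9.30 in PomcGFP, 9.21, 8.99 and 8.68 in kiTbr2GFP, 9.69, 9.42 and 9.51 in tgTbr2GFP, and 10.77, 10.45 and 10.42 in NesGFP. PomcGFP overlapped with kiTbr2GFP and lay below tgTbr2GFP. The differences were -1.30 ± 0.14 (SE) for the Tbr2 lines (adjusted p = 1.26e-05) and -1.37 ± 0.18 (SE) for PomcGFP (adjusted p = 0.000107). A second Ldhb probe set gave -1.15 ± 0.09 (SE) and -1.11 ± 0.11 (SE). On that probe set PomcGFP (7.78 and 7.77) lay above kiTbr2GFP (7.45 to 7.63) and below tgTbr2GFP (7.83 to 8.02).

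**Figure D2:**
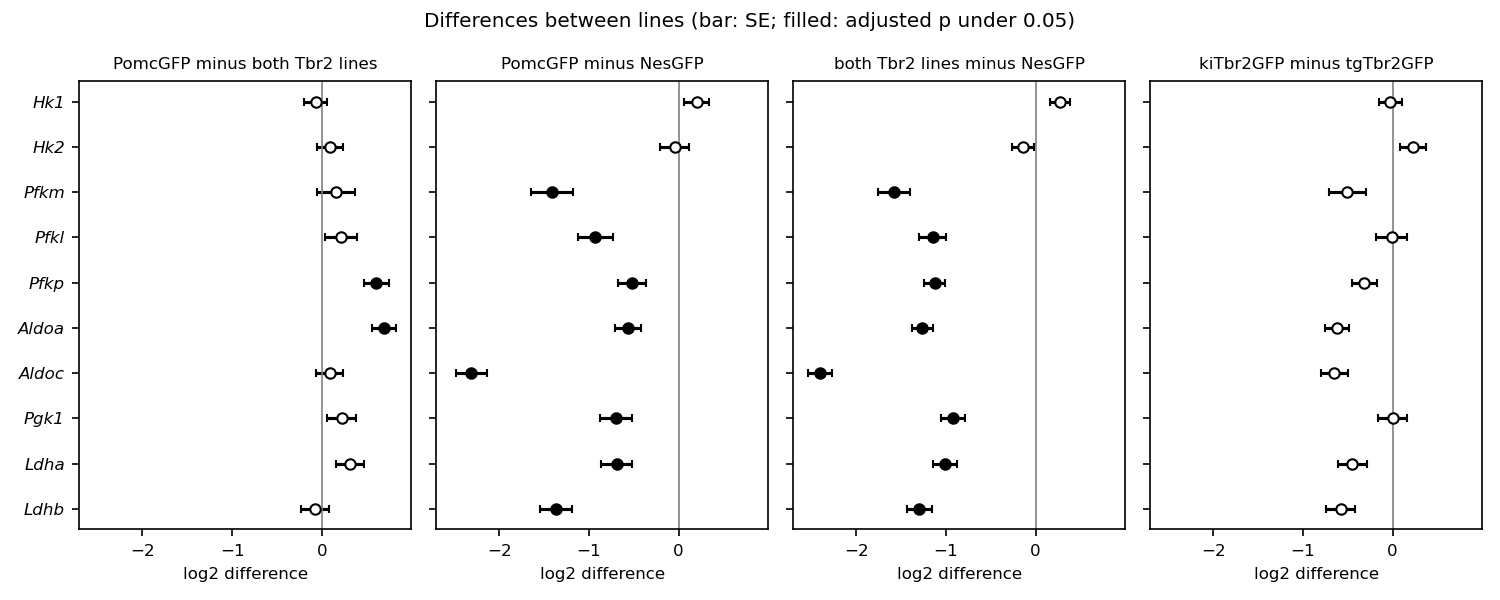
Log2 differences (x axis) of the 10 members (y axis) in 4 comparisons, from 1 limma fit of all 11 arrays. Points are fitted differences, bars their SE, and filled points have an adjusted p under 0.05. The 8 genes from Pfkm to Ldhb are filled left of 0 in both comparisons with NesGFP, and Pfkp and Aldoa alone are filled in PomcGFP against the Tbr2 lines.

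Cells with the Pomc reporter were next set against cells with either Tbr2 reporter. Of the 10 members, 2 passed as higher in PomcGFP and 0 as lower in limma, against 2% and 1.73% of all genes. At any p, 8 differences were positive, with a median of 0.19 against 0.02 over all genes. Aldoa was higher by 0.70 ± 0.13 (SE, adjusted p = 0.0139) and Pfkp by 0.61 ± 0.14 (SE, adjusted p = 0.0346) in limma. For either gene both PomcGFP arrays lay above all 6 Tbr2 arrays, and how many of all genes did so was not counted. The Aldoa call ended without the first PomcGFP array (0.53, adjusted p = 0.244). The Pfkp call ended with each array centred on its median (adjusted p = 0.0731), without either PomcGFP array (adjusted p = 0.377 and 0.128), without any of the kiTbr2GFP arrays (adjusted p = 0.0614 to 0.0762) and without the second tgTbr2GFP array (adjusted p = 0.0686). Ldha was at 0.32 ± 0.16 (SE; adjusted p = 0.456), Aldoc at 0.09 ± 0.15 (SE; adjusted p = 0.947) and Ldhb at -0.07 ± 0.16 (SE; adjusted p = 0.967).

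The Tbr2 reporters were compared with each other in kiTbr2GFP against tgTbr2GFP. None of the 10 members passed in limma, against 1.12% of all genes (0.436% higher and 0.684% lower), but 9 differences were negative, with a median of -0.38 against 0.02 over all genes. The kiTbr2GFP arrays lay wholly below the tgTbr2GFP arrays for 5 members, Pfkm, Aldoa, Aldoc, Ldha and Ldhb, as they did for 9.38% of all genes. Aldoc differed by -0.65 ± 0.15 (SE; adjusted p = 0.077), Aldoa by -0.62 ± 0.13 (SE; adjusted p = 0.0527) and Ldhb by -0.58 ± 0.16 (SE; adjusted p = 0.139). Pgk1 was level at 0.00 ± 0.16 (SE). With array weights 4 members passed as lower in kiTbr2GFP, namely Aldoa (adjusted p = 0.0024), Aldoc (adjusted p = 0.00161), Ldha (adjusted p = 0.00409) and Ldhb (adjusted p = 0.0108), where 5.03% of all genes passed as lower. With a trend and robust prior Aldoa (adjusted p = 0.0318) and Aldoc (adjusted p = 0.0469) did, where 135 of 16527 genes passed as lower. The Aldoa call also appeared with the stricter filter (adjusted p = 0.0486), where 117 of 12321 genes passed as lower. It appeared in a fit of the Tbr2 lines alone (adjusted p = 0.0229), where 146 of 16527 did. Without the first or the third NesGFP array it appeared too (adjusted p = 0.0299 and 0.0349), where 123 and 162 of 16527 did. The Aldoc call appeared with Y-linked level as a covariate (adjusted p = 0.0498), where 150 of 16527 did.

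Whether isoforms changed unequally was asked with the log2 difference between 2 genes on each array, set against its NesGFP mean. Aldoc minus Aldoa was at -1.80 and -1.69 in PomcGFP, -0.91, -1.41 and -1.14 in kiTbr2GFP, -0.91, -1.27 and -1.20 in tgTbr2GFP, and -0.18, 0.19 and -0.01 in NesGFP. Both PomcGFP arrays lay below all Tbr2 arrays, and these below all NesGFP arrays. The change was -1.14 for the Tbr2 lines against NesGFP (exact two-sided permutation p = 0.0238, the smallest that 6 against 3 arrays allow), -0.61 for PomcGFP against the Tbr2 lines (exact p = 0.0714, again the smallest) and -1.75 for PomcGFP against NesGFP, where the smallest p is 0.2. Pfkp minus Pfkm was at 0.64 and 1.15 in PomcGFP, 0.47 to 0.65 in kiTbr2GFP, 0.31 to 0.41 in tgTbr2GFP and -0.27 to 0.33 in NesGFP. It changed by 0.45 for the Tbr2 lines against NesGFP (exact p = 0.0476). Ldhb minus Ldha changed by -0.28 in the same comparison (exact p = 0.0476), and by -0.14 with the other Ldhb probe set (exact p = 0.429). Hk2 minus Hk1 changed by -0.41 with the chosen Hk1 probe set and by 0.62 with the other. Pfkp minus Pfkl changed by 0.02 (exact p = 0.929) and Pfkm minus Pfkl by -0.43 (exact p = 0.119). With 6 pairs in 4 comparisons, 24 tests, the lowest adjusted p (Benjamini-Hochberg) was 0.267. With this number of arrays no pair could have passed, since the lowest adjusted p these exact tests can reach is 0.0952.

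**Figure D3:**
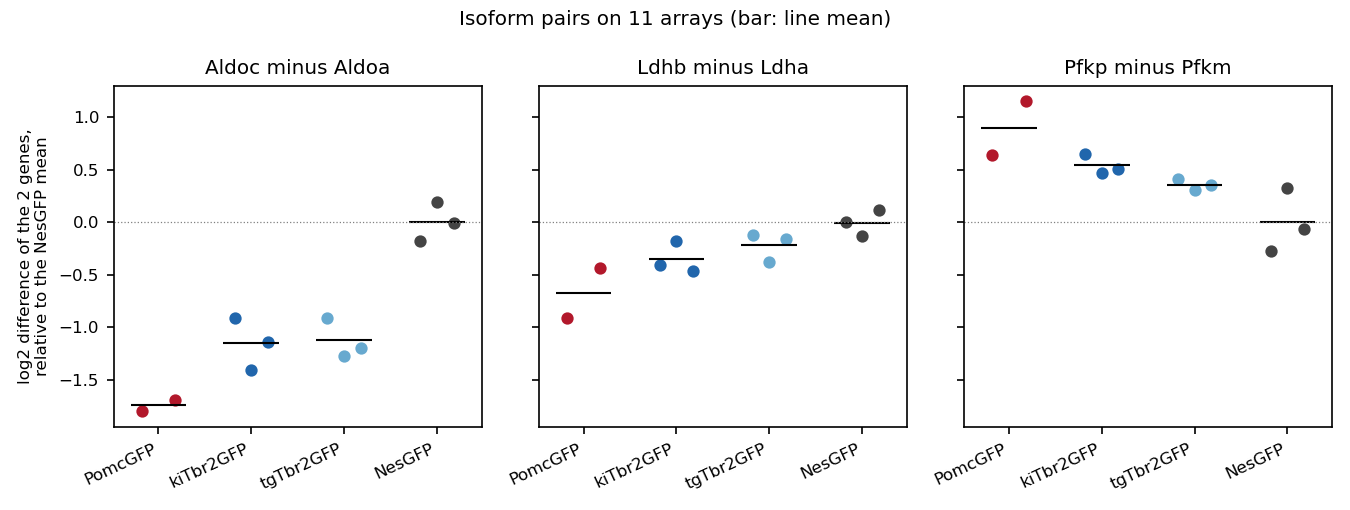
Log2 difference between 2 genes on each array, minus its NesGFP mean (y axis), by line (x axis). Points are arrays and bars line means. For Aldoc minus Aldoa the PomcGFP arrays lie at -1.80 and -1.69 and the NesGFP arrays between -0.18 and 0.19.

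The rest of the pathway was read from 6 lists of genes, of which 63 were measured. Gapdh had no probe set of its own (25 are shared with other symbols), and no probe set is annotated to Gpi1 or Eno1 alone. Of the 63 genes, 35 passed as lower and 6 as higher in the Tbr2 lines than in NesGFP, against 29.1% and 19.8% of all genes, and their median difference was -0.61. For PomcGFP against NesGFP it was 33 lower and 7 higher, against 24% and 15.9%. In PomcGFP against the Tbr2 lines 2 of 63 passed, both higher, against 3.73% of all genes, and in kiTbr2GFP against tgTbr2GFP 1 did, Gyg, which makes the glycogen primer, at -0.77 ± 0.16 (SE; adjusted p = 0.0467).

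Of 13 other glycolysis genes, 5 were lower and 1 higher in the Tbr2 lines than in NesGFP, against 29.1% and 19.8% of all genes. The list's median was 0.02. Among the lower ones were Tpi1, triosephosphate isomerase, at -1.28 ± 0.18 (SE; adjusted p = 0.000104), Pkm, pyruvate kinase, at -0.85 (adjusted p = 0.00013), and Pgam1, a phosphoglycerate mutase, at -0.70 (adjusted p = 0.000143). Bpgm and Pgam2 were the others, and Gapdhs was higher by 0.44. Eno2, the neuronal enolase, was at 8.22 and 8.77 in PomcGFP, 7.32 to 7.59 in kiTbr2GFP, 7.43 to 7.93 in tgTbr2GFP and 7.80 to 8.01 in NesGFP. It was higher in PomcGFP by 0.90 ± 0.17 (SE; adjusted p = 0.0134) than in the Tbr2 lines and by 0.61 ± 0.19 (SE; adjusted p = 0.0262) than in NesGFP.

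Among 8 transport genes 4 were lower and 1 higher in the Tbr2 lines than in NesGFP, against 29.1% and 19.8% of all genes. Slc2a1, the glucose transporter of the blood-brain barrier and glia, was at 8.55 and 9.10 in PomcGFP, 8.28 to 8.35 in kiTbr2GFP, 8.5 to 8.9 in tgTbr2GFP and 11.65 to 11.83 in NesGFP. Its difference for the Tbr2 lines was -3.20 ± 0.13 (SE; adjusted p = 2.39e-08). Slc16a1, the monocarboxylate transporter of glia and endothelium, differed by -2.48 ± 0.21 (SE; adjusted p = 2.34e-06). Slc16a7, the neuronal transporter that takes up lactate, ran the other way, at 8.39 and 8.5 in PomcGFP, 7.12 to 7.42 in kiTbr2GFP, 7.5 to 7.81 in tgTbr2GFP and 6.37 to 7.14 in NesGFP. It was higher by 0.76 ± 0.16 (SE; adjusted p = 0.0021) in the Tbr2 lines than in NesGFP and by 1.01 ± 0.18 (SE; adjusted p = 0.0102) in PomcGFP than in the Tbr2 lines. Slc2a3, the neuronal glucose transporter, differed by -0.07 for the Tbr2 lines against NesGFP (adjusted p = 0.809) and by 0.51 for PomcGFP against the Tbr2 lines (adjusted p = 0.487).

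Of 13 regulators 5 were lower and 3 higher in the Tbr2 lines than in NesGFP, against 29.1% and 19.8% of all genes. These shares apply to the other lists below too. Epas1, a hypoxia-inducible transcription factor of vessels and glia, differed by -3.18 ± 0.17 (SE; adjusted p = 1.17e-07), whereas Hif1a, the ubiquitous one, was higher by 0.42 (adjusted p = 0.00843). Pfkfb3, which makes the activator of phosphofructokinase, was lower by -1.09 (adjusted p = 0.000241), and Prkaa2, an AMP-activated kinase subunit, was higher by 0.98 (adjusted p = 0.00633). Of 13 genes of pyruvate entry into mitochondria 8 were lower and 1 was higher, Pdp1, the phosphatase that activates pyruvate dehydrogenase, at 0.86 (adjusted p = 8.03e-05). Of 6 pentose phosphate genes 4 were lower, with Taldo1, Pgd and Tkt at -1.66, -1.62 and -1.56. Of 10 glycogen genes 9 were lower, with Ppp1r3c, a glycogen-targeting phosphatase subunit, at -2.17 and Pygb, the brain phosphorylase, at -1.71. The genes named from these last 2 lists, and Bpgm, Pgam2 and Gapdhs, were chosen after their values were seen.

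**Figure D4:**
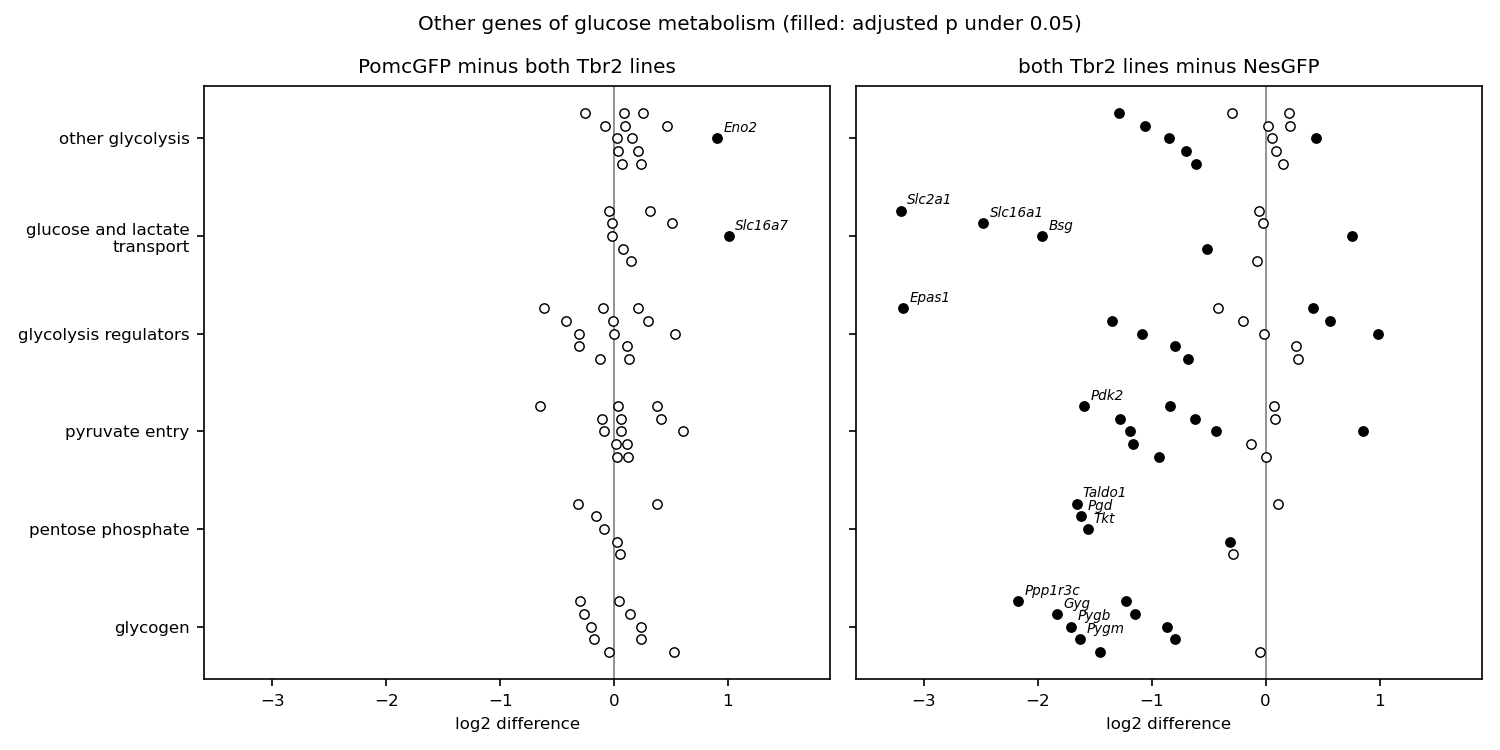
Log2 differences (x axis) of 63 other genes of glucose metabolism in 6 lists (y axis) for PomcGFP against both Tbr2 lines and for both Tbr2 lines against NesGFP. Each point is a gene, filled at an adjusted p under 0.05, and its height within a list has no meaning. Slc2a1 and Epas1 lie at -3.20 and -3.18 in the right panel, and Eno2 and Slc16a7 are the filled points of the left panel.

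Markers of several other cell types moved with the members in the comparisons with NesGFP, and those of others did not. Beside the counts below, 29.1% of all genes passed as lower and 19.8% as higher in the Tbr2 lines. In PomcGFP against NesGFP the shares were 24% and 15.9%. All 10 astrocyte markers passed as lower in the Tbr2 lines than in NesGFP, and their mean level was 8.38 to 8.53 in PomcGFP, 7.61 to 7.93 in kiTbr2GFP, 8.14 to 8.74 in tgTbr2GFP and 9.98 to 10.09 in NesGFP. All 9 endothelial markers passed as lower, with mean levels of 6.81 to 7.17 in PomcGFP, 6.13 to 6.41 in kiTbr2GFP, 6.24 to 7.16 in tgTbr2GFP and 9.75 to 9.94 in NesGFP. Also lower were all 10 mural markers, at 7.17 to 7.56 in PomcGFP, 6.98 to 7.11 in kiTbr2GFP, 7.0 to 7.24 in tgTbr2GFP and 9.55 to 9.64 in NesGFP. The 9 oligodendrocyte markers passed as lower too, at 9.1 to 9.14 in PomcGFP, 7.42 to 8.11 in kiTbr2GFP, 7.42 to 9.32 in tgTbr2GFP and 10.69 to 10.85 in NesGFP. The 10 oligodendrocyte precursor markers passed as lower at 7.81 to 7.95 in PomcGFP, 7.29 to 7.55 in kiTbr2GFP, 7.52 to 7.75 in tgTbr2GFP and 9.49 to 9.73 in NesGFP. All 9 stem cell and radial glia markers passed as lower as well, at 8.4 to 8.47 in PomcGFP, 8.42 to 8.53 in kiTbr2GFP, 8.67 to 8.89 in tgTbr2GFP and 9.91 to 10.11 in NesGFP. Of 8 microglia markers 1 passed as lower. In PomcGFP against NesGFP 9 of 10 astrocyte, 9 of 9 endothelial, 10 of 10 mural, 5 of 9 oligodendrocyte, 10 of 10 oligodendrocyte precursor and 9 of 9 stem cell markers passed as lower, while 4 of 8 microglia markers passed as higher and 0 as lower. Mature neuron markers were higher in 9 of 10 there, and in the Tbr2 lines against NesGFP 4 were higher and 2 lower. Of 10 intermediate progenitor markers 8 were higher in the Tbr2 lines than in NesGFP, as were 7 of 9 dividing-cell markers. In kiTbr2GFP 3 of the endothelial markers lay under the 25th percentile of the array on all arrays, and none of the astrocyte markers did in any line. The part of these cells in the lower values of the members was not tested.

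In PomcGFP against the Tbr2 lines, where Aldoa and Pfkp passed, 7 of 10 mature neuron markers were higher, with mean levels of 10.23 to 10.31 in PomcGFP, 8.23 to 8.41 in kiTbr2GFP and 8.91 to 9.57 in tgTbr2GFP. Of 9 oligodendrocyte markers 2 were higher, of 8 microglia markers 3 and of 10 astrocyte markers 1. Of 9 dividing-cell markers 7 were lower, of 10 intermediate progenitor markers 4 and of 9 stem cell markers 1. Among all genes 2% passed as higher and 1.73% as lower there. In kiTbr2GFP against tgTbr2GFP, 6 of 9 dividing-cell markers were higher, against 0.436% of all genes. There 3 of 10 astrocyte, 4 of 10 mature neuron and 2 of 9 stem cell markers were lower, against 0.684% of all genes. Whether these shifts bear on the members was not tested.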

How the data were processed

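The values deposited by the authors are log2 expression values, 1 per probe set and array. Per the submitters' processing notes they come from RMA as run in oligo; the version is not given in the sources used here, and their range fits RMA's log2 output. Of 28858 probe sets 21789 carry a single symbol in the platform annotation, 1621 several and 5448 none. Probe sets with a single symbol above the 25th percentile of an array on at least 2 arrays (18097) were kept, and the highest mean stood for each of 16527 genes. All 11 arrays were fitted with line means in limma 3.58.1 under R 4.3.3 (7 residual and 4.22 prior degrees of freedom), and a gene passed at a two-sided Benjamini-Hochberg adjusted p under 0.05. Isoform pairs were compared with exact permutation tests in scipy 1.17.1. The fits were also run on simulated data with independent noise on each array, and the outcome is not given here. Members and lists were chosen with earlier results of these data known. Named genes are all members, 12 fixed pathway genes where measured, and the 3 largest differences in each direction past the test; Bpgm, Pgam2, Gapdhs, Taldo1, Pgd, Tkt, Ppp1r3c and Pygb fall outside that rule and were named after their values were seen. Replicate numbers were not used as pairs.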

Additional observations from a re-analysis of the deposited data

How the results depend on the processing

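Of the members' calls against NesGFP in the Tbr2 lines, all 8 kept their direction and stayed past the test under each of the 10 alternatives run and every array left out. Hk1 alone turned: it was -0.25 (adjusted p = 0.0223) with the mean of its probe sets and -0.76 with its other probe set, and for PomcGFP against NesGFP -0.60 with the other probe set, an alternative chosen after seeing the data. It passed as higher in the Tbr2 lines with cyclic loess (0.33), a trend and robust prior (0.27), the replicate block (0.27) and without the third NesGFP array (0.34). In PomcGFP against both Tbr2 lines 617 genes passed, 1624 with array weights, 1022 in a fit of these lines alone and 180 to 806 when an array was left out, the lowest without the first PomcGFP array and 228 without the second. In kiTbr2GFP against tgTbr2GFP 185 passed, 1393 with array weights and 68 to 261 with an array left out, with 68 to 85 without a kiTbr2GFP array and 77 and 80 without the first or the third tgTbr2GFP array. Same-numbered arrays of different lines had deviations correlated at -0.106 to 0.262 and were not treated as pairs, since not every pair was over 0.1 and no label says what a number marks. Among the third arrays of kiTbr2GFP, tgTbr2GFP and NesGFP the correlations were 0.134 to 0.262, above the highest of 30 different-numbered pairs (0.124), and 6 of 11 arrays correlated best with their own number. With the replicate number as a block 506, 7124, 8418 and 147 genes passed for PomcGFP against the Tbr2 lines, PomcGFP against NesGFP, the Tbr2 lines against NesGFP and kiTbr2GFP against tgTbr2GFP; apart from Hk1 it changed no member's call. Low signal limits Hk2, which lay under the array median on all 11 arrays and was not tested with the 50th percentile filter.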
